A study of Fundulus heteroclitus with 53 samples.

Results

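The hypoxia-inducible factor (HIF) genes hif1aa, epas1a, epas1b and hif1al, and hif1an, which encodes the factor inhibiting HIF, were measured in the liver of Atlantic killifish (Fundulus heteroclitus). These 5 genes were chosen by symbol from the 34089 genes of the RNA-seq count tables, and all 5 were abundant enough to be among the 13609 genes tested. The fish were first-generation, laboratory-raised juveniles of 6 months, bred from parents caught in New Bedford Harbor (NBH), a harbor contaminated with polychlorinated biphenyls whose killifish resist these compounds, or in Scorton Creek (SC), the toxicant-sensitive reference population. The 6 groups were NBH control, NBH mild hypoxia, NBH severe hypoxia, SC control, SC mild hypoxia and SC severe hypoxia, with 5 fish each, where mild was 10% oxygen, severe was 5% oxygen and the exposure lasted 6 h. Control fish were kept on the benchtop at normal oxygen, whereas hypoxic fish were held in closed, gas-flushed chambers. Effects of low oxygen and of the chamber therefore cannot be told apart in comparisons with controls. Each library was 1 liver. The parents were a small number of females and males per population, so that the tests cover variation between individual fish and say nothing of variation between broods.

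HIF is a transcription factor made of an oxygen-labile alpha subunit and a stable beta subunit, ARNT. When oxygen is plentiful, prolyl hydroxylases of the EGLN family mark the alpha subunit for VHL, which sends it for degradation, and the asparaginyl hydroxylase encoded by hif1an (FIH) blocks the binding of the coactivators CBP and p300. When oxygen is short both reactions slow, and the alpha protein accumulates and switches on genes of glycolysis, red cell formation and vessel growth. Much of this control acts on the protein, so read counts of the alpha genes report transcript abundance and not HIF activity. The product of hif1aa is an HIF-1α, and those of epas1a and epas1b are HIF-2α paralogs. The symbol hif1al does not tell by itself which alpha subunit the gene encodes. The paper reports no change of HIF-1α or HIF-2α transcripts at either hypoxia level in either population. Here epas1a rose in SC mild hypoxia (edgeR adjusted p = 0.0422) and epas1b in SC severe hypoxia (edgeR adjusted p = 0.0243). These calls differ from the paper and did not hold in every fit. The fits differ too, since the paper left out 1 NBH severe hypoxia fish and its set of expressed genes was smaller. It does not name the HIF-2α genes it followed, so whether epas1b was tested there is not known. Without NBH severe hypoxia replicate 5, a fish described below, the edgeR adjusted p-values were 0.0362 for epas1a and 0.00713 for epas1b. For HIF-3α the paper reports a rise at both hypoxia levels in NBH fish alone. Among the 5 genes only hif1al showed that pattern here. Without NBH severe hypoxia replicate 5 the log2 fold changes of hif1al were 1.77 in mild and 1.56 in severe hypoxia. Those values lie close to the ones that the paper gives for HIF-3α. The gene hif1al may therefore be the one that the paper names HIF-3α, an identity that was not tested by sequence.

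On the RefSeq assembly MU-UCD_Fhet_4.1, to which the study aligned its reads, the 5 genes lie on 4 chromosomes. The gene hif1aa spans 6740604 to 6757669 of chromosome 19, and 277 bp of that span overlap the uncharacterized gene LOC105927647. The libraries were stranded but the strand setting of the counting is not given in the sources used here, so reads from the shared stretch cannot be assigned with certainty. The gene epas1a lies at 10480014 to 10501452 of chromosome 10, hif1al at 36151192 to 36176288 of chromosome 18, and the remaining pair shares chromosome 22, with hif1an at 24160378 to 24172393 and epas1b at 37245300 to 37313146.

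Total counts ran between 4955114 and 23849931 per library, with group medians of 8179471, 16942104 and 17879044 in NBH control, mild and severe hypoxia and of 12755707, 7393074 and 18906362 in SC control, mild and severe hypoxia, so that depth differed between groups. One NBH severe hypoxia fish, replicate 5, stood apart: it had the fewest counts, and its median correlation with the other fish of its group was 0.867, against 0.929 to 0.957 for every other library. The study left out 1 fish of that group without naming it, and here all 30 were kept. Several results that replicate 5 moved are also given without it, whereas target and marker counts are given only with it. Levels are counts per 1000000 counts of the library (CPM) after TMM scaling, given as mean ± SD of 5 fish, and are compared between groups for 1 gene at a time because gene lengths were not used. Differences are log2 fold changes from edgeR's quasi-likelihood test with their standard error (SE), and a gene was called at a Benjamini-Hochberg adjusted p under 0.05 over all 13609 genes.

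The gene that moved most was hif1al. It was higher after mild and after severe hypoxia in NBH fish, by 3.40-fold and 3.20-fold, while no change was called in SC fish. The populations started from different levels, since NBH control livers held 0.38 times the hif1al level of SC control livers. Across the 6 groups the mean level ranged over 3.59-fold, the widest range of the 5 genes.

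In NBH control livers hif1al stood at 26.4, 24.3, 19.6, 28.9 and 37.7 CPM. In NBH mild hypoxia livers it stood at 172, 62.9, 32.0, 145 and 54.9 CPM. In NBH severe hypoxia livers it stood at 52.2, 48.1, 95.9, 125 and 118 CPM. Every severe hypoxia fish thus lay above every control fish, as in either direction for 9.01% of tested genes, and of the mild hypoxia fish only replicate 3 lay within the control range. The spread was wide under mild hypoxia, where the highest fish had 5.38 times the level of the lowest, against 1.92 times among the controls.

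In SC control livers hif1al stood at 67.1, 52.0, 96.0, 69.3 and 76.4 CPM. In SC mild hypoxia livers it stood at 68.8, 44.2, 48.4, 44.7 and 30.4 CPM. In SC severe hypoxia livers it stood at 97.9, 97.6, 93.9, 109 and 92.0 CPM. The SC severe hypoxia fish were close to each other, with a coefficient of variation of 6.82%, and did not overlap the SC mild hypoxia fish, as was so for 4.04% of tested genes. The mild hypoxia values overlapped those of the controls, as did the severe ones through the control fish with 96.0 CPM.

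**Figure D1:**
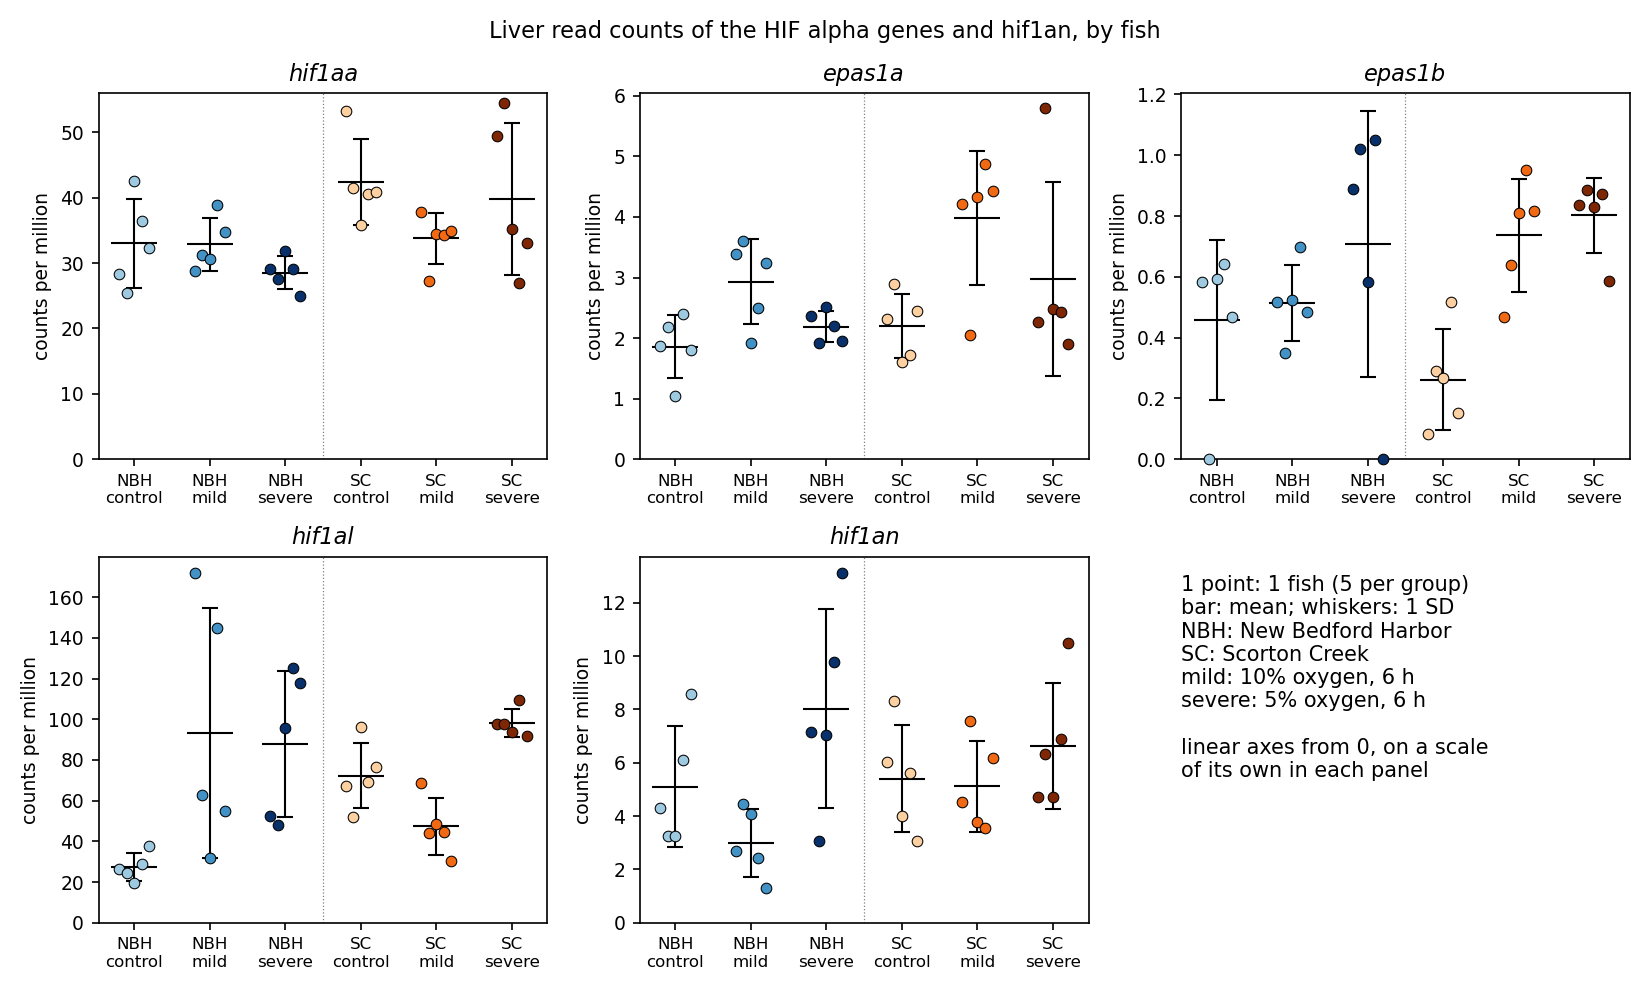
CPM (linear axes from 0, a scale of its own in each panel) of the 5 genes in each fish of the 6 groups, with 1 point per fish and bars for the mean and 1 SD (n = 5). In the hif1al panel the NBH control fish sit between 19.6 and 37.7 CPM and the NBH severe hypoxia fish between 48.1 and 125 CPM, while hif1aa stays between 25.01 and 54.5 CPM throughout.

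In NBH fish the log2 fold change of hif1al was 1.77 after mild hypoxia (SE 0.34, edgeR adjusted p = 0.000885) and 1.68 after severe hypoxia (SE 0.34, adjusted p = 0.00178). It was the 1 member of 5 called in each of these comparisons, where 21% and 14% of all tested genes were called. Ranked with its sign, so that every fall counts as lower, the mild change lay above that of 98.7% of tested genes. The severe change lay above that of 98.1%. Both calls were kept under 7 alternatives, which changed the scaling, the test, the filter, the model or the samples, and in 30 fits that each left out 1 fish, with log2 fold changes between 1.43 and 2.14. Between NBH severe hypoxia and NBH mild hypoxia hif1al did not pass the test, with a log2 fold change of -0.09 (95% interval -0.73 to 0.55, adjusted p = 0.923), or -0.21 without NBH severe hypoxia replicate 5 (adjusted p = 0.847).

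In SC fish the log2 fold change of hif1al was -0.61 after mild hypoxia (SE 0.33, edgeR adjusted p = 0.218) and 0.44 after severe hypoxia (SE 0.33, adjusted p = 0.321), neither called. Severe against mild hypoxia gave 1.05 (SE 0.33, adjusted p = 0.0883). This difference crossed the threshold with DESeq2 (adjusted p = 0.0433), with a fit to those 10 fish alone (adjusted p = 0.0144) and without NBH mild hypoxia replicate 3 (adjusted p = 0.0421).

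Whether the populations responded differently was tested by the interaction, the NBH response minus the SC response. For hif1al under mild hypoxia it was 2.38 on the log2 scale (SE 0.47, unadjusted p = 2.38e-05), but its edgeR adjusted p was 0.162, and the lowest adjusted p of any gene in that contrast was 0.106. With edgeR 0% of genes were called in the mild interaction, with 1046 genes at an unadjusted p under 0.05, whereas DESeq2 called 36 genes, hif1al among them (adjusted p = 0.00314). Leaving out NBH mild hypoxia replicate 3, the fish with the lowest hif1al of its group, gave an edgeR adjusted p of 0.0133, and over all 30 fits that left out 1 fish the interaction stayed between 2.04 and 2.60. Of those 30 fits only that 1 called it, and the adjusted p reached 0.351. Of the 7 alternatives only DESeq2 called it, and the adjusted p reached 0.257. Under severe hypoxia the hif1al interaction was 1.23 (SE 0.47, adjusted p = 0.328), where 0.00735% of genes were called. Without NBH severe hypoxia replicate 5 it was 1.12 (adjusted p = 0.380).

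Between the populations, hif1al was lower in NBH control livers than in SC control livers, at 27.4 ± 6.69 CPM against 72.2 ± 16.02 CPM, and the fish did not overlap, as was so for 4.45% of tested genes. The log2 difference was -1.40 (SE 0.34, edgeR adjusted p = 0.0274) in a comparison where only 1.62% of genes were called. Its size held in the fits that left out 1 of those 10 fish (-1.54 to -1.27), but the call did not: the adjusted p was 0.0669, 0.0762, 0.0762 and 0.0570 without NBH control replicates 1, 2, 3 and 4 and 0.0823 and 0.0518 without SC control replicates 3 and 5. After mild hypoxia the order of the means was the opposite, at 93.3 ± 61.3 CPM in NBH livers and 47.3 ± 13.8 CPM in SC livers, a log2 difference of 0.98 (SE 0.33, adjusted p = 0.133) that was called only without NBH mild hypoxia replicate 3 (adjusted p = 0.0323). After severe hypoxia the levels were 87.8 ± 36.0 CPM in NBH livers and 98.1 ± 6.69 CPM in SC livers, a log2 difference of -0.16 (95% interval -0.80 to 0.48, adjusted p = 0.803), or -0.29 without NBH severe hypoxia replicate 5 (adjusted p = 0.683).

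**Figure D2:**
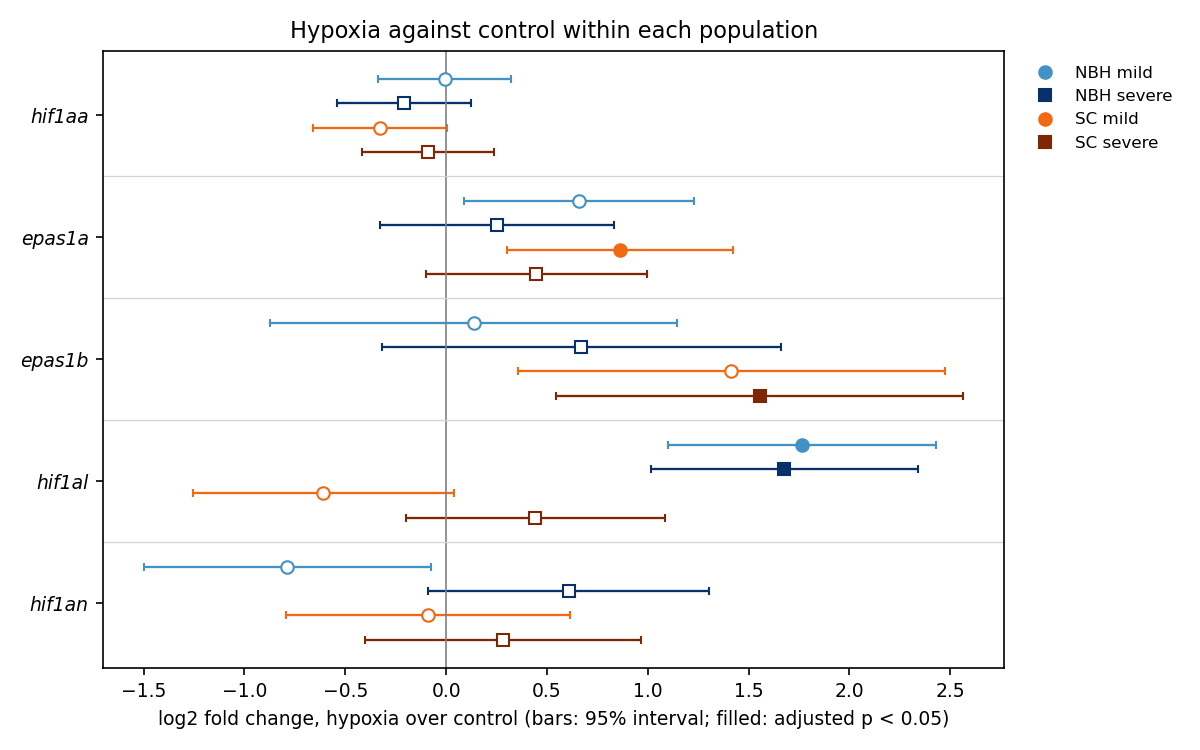
Log2 fold changes of the 5 genes in hypoxia over control within each population (x axis), with 95% intervals and filled symbols at an adjusted p under 0.05. The NBH points of hif1al stand at 1.77 and 1.68, and the other filled points are epas1a in SC mild hypoxia at 0.86 and epas1b in SC severe hypoxia at 1.56.

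The HIF-2α gene epas1b had few reads, between 0 and 24 per library. In SC control livers it had 1, 3, 3, 6 and 1 counts, or 0.0827, 0.290, 0.268, 0.517 and 0.153 CPM. In SC mild hypoxia livers it stood at 0.469, 0.640, 0.811, 0.951 and 0.816 CPM. In SC severe hypoxia livers it stood at 0.837, 0.887, 0.829, 0.874 and 0.585 CPM, all 5 above the highest control fish. Such a separation was seen upward in 9.89% of tested genes and in either direction in 18.3%.

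Between SC severe hypoxia and SC control epas1b rose by a log2 fold change of 1.56 (SE 0.51, edgeR adjusted p = 0.0243), the 1 member called where 28.7% of genes were. The pooled counts were 92 in severe hypoxia and 14 in controls, a ratio per scaled library size of 2.99 (95% interval 1.70 to 5.69, counting error only). The call ended without SC control replicate 1 (adjusted p = 0.0741) or replicate 5 (adjusted p = 0.0582), and with library size as a covariate (adjusted p = 0.190). SC mild hypoxia over SC control gave a log2 fold change of 1.41 (SE 0.54, adjusted p = 0.0786), which passed without NBH severe hypoxia replicate 5 (adjusted p = 0.0293) or without SC control replicate 4 (adjusted p = 0.0416).

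In NBH livers epas1b averaged 0.458 ± 0.264 CPM in controls, 0.514 ± 0.125 CPM in mild hypoxia and 0.709 ± 0.437 CPM in severe hypoxia. NBH control replicate 2 and NBH severe hypoxia replicate 5 had 0 counts, which at their depth allows up to 0.544 and 0.532 CPM (3 counts). Neither hypoxia level was called in NBH fish, with log2 fold changes of 0.14 (SE 0.51, adjusted p = 0.877) for mild and 0.67 (SE 0.51, adjusted p = 0.390) for severe hypoxia. Without replicate 5 the severe value was 0.91 (adjusted p = 0.144). The difference between the populations' severe responses was -0.88 (SE 0.72, adjusted p = 0.705), or -0.65 without replicate 5 (adjusted p = 0.758). No difference between the populations was detectable at this depth.

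The other HIF-2α gene, epas1a, rose after mild hypoxia in SC livers. It stood at 2.31, 2.90, 1.61, 1.72 and 2.45 CPM in SC control livers, at 4.22, 2.05, 4.33, 4.87 and 4.43 CPM in SC mild hypoxia livers and at 2.26, 5.80, 2.49, 2.43 and 1.90 CPM in SC severe hypoxia livers. Of the mild hypoxia fish 4 lay above all controls, and replicate 2 lay among them. The log2 fold change in mild hypoxia was 0.86 (SE 0.29, edgeR adjusted p = 0.0422), the 1 member called where 13.6% of genes were.

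The call ended without any 1 of SC control replicates 1, 3, 4 and 5 (adjusted p = 0.0675, 0.112, 0.0867 and 0.0616) or of SC mild hypoxia replicates 1, 3, 4 and 5 (adjusted p = 0.0743, 0.0829, 0.105 and 0.0690). In SC severe hypoxia the log2 fold change of epas1a was 0.45 (SE 0.28, adjusted p = 0.236), and without replicate 2, the fish with 5.80 CPM, it was 0.05 (adjusted p = 0.907).

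In NBH livers epas1a had the same order of means, at 1.86 ± 0.519 CPM in controls, 2.93 ± 0.700 CPM in mild hypoxia and 2.19 ± 0.258 CPM in severe hypoxia. The log2 fold change was 0.66 in mild hypoxia (SE 0.29, edgeR adjusted p = 0.105), and 0.25 in severe hypoxia (SE 0.30, adjusted p = 0.607). The mild value passed the test without SC severe hypoxia replicate 2, a fish outside this comparison (adjusted p = 0.0483). The mild responses of the 2 populations differed by -0.20 (SE 0.41, adjusted p = 0.954), an error that leaves room for a difference in either direction.

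The HIF-1α gene hif1aa was the steadiest of the 5, with its highest group mean 1.49 times its lowest. It ranged between 25.4 and 42.6 CPM in NBH control livers, between 28.7 and 38.9 CPM in NBH mild hypoxia livers and between 25.01 and 31.8 CPM in NBH severe hypoxia livers. The SC ranges were 35.8 to 53.3 CPM in control, 27.3 to 37.8 CPM in mild hypoxia and 26.9 to 54.5 CPM in severe hypoxia livers. All pairs of groups that were compared overlapped.

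No hypoxia comparison called hif1aa. The log2 fold changes were -0.01 (95% interval -0.34 to 0.32) in NBH mild hypoxia and -0.21 (-0.54 to 0.12) in NBH severe hypoxia. In SC fish they were -0.33 (-0.66 to 0.00) in mild hypoxia and -0.09 (-0.42 to 0.24) in severe hypoxia. The edgeR adjusted p-values of these 4 comparisons ran from 0.196 to 0.982, and leaving out the TMM scaling turned the sign of the NBH mild, NBH severe and SC severe values. Between the populations under severe hypoxia hif1aa was lower in NBH livers (28.5 ± 2.49 CPM) than in SC livers (39.8 ± 11.6 CPM) by 0.48 on the log2 scale. This difference did not pass the test (SE 0.17, adjusted p = 0.0754) unless SC severe hypoxia replicate 4 was left out (adjusted p = 0.0312). Without NBH severe hypoxia replicate 5 the log2 difference was -0.44 (adjusted p = 0.138). The overlapping gene LOC105927647 stood between 5.50 and 23.1 CPM in NBH livers and between 17.5 and 41.8 CPM in SC livers, and its share in the hif1aa counts was not tested. Its lowest NBH value was that of NBH severe hypoxia replicate 5, and the next lowest NBH fish stood at 14.8 CPM.

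The inhibitor hif1an changed between the 2 hypoxia levels in NBH fish. It stood at 7.15, 3.06, 7.04, 9.77 and 13.1 CPM in NBH severe hypoxia livers, against 2.70, 4.47, 4.07, 2.45 and 1.31 CPM in NBH mild hypoxia livers. Of the severe hypoxia fish 4 lay above all mild ones, and replicate 2 lay among them. The log2 fold change was 1.39 (SE 0.36, edgeR adjusted p = 0.0371), the 1 member called where 1.95% of genes were.

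NBH control livers lay between these levels, at 4.32, 3.26, 3.27, 6.10 and 8.60 CPM, and hif1an was called in neither hypoxia group against them. The log2 fold change was -0.79 in mild hypoxia (SE 0.36, edgeR adjusted p = 0.120), and 0.61 in severe hypoxia (SE 0.36, adjusted p = 0.256), or 0.39 without NBH severe hypoxia replicate 5 (adjusted p = 0.484). The call between severe and mild ended without NBH mild hypoxia replicates 1, 4 or 5 (adjusted p = 0.0787, 0.0980 and 0.0929) or NBH severe hypoxia replicates 4 or 5 (adjusted p = 0.0821 and 0.109), and in 5 of 7 changes of processing (adjusted p between 0.0501 and 0.205). The log2 fold change itself stayed between 1.17 and 1.60 when 1 of these 10 fish was left out.

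In SC livers hif1an averaged 5.40 ± 2.01 CPM in controls, 5.12 ± 1.70 CPM in mild hypoxia and 6.63 ± 2.37 CPM in severe hypoxia. The log2 fold change was -0.09 (95% interval -0.79 to 0.61, adjusted p = 0.893) in mild and 0.28 (-0.40 to 0.96, adjusted p = 0.571) in severe hypoxia. Severe against mild hypoxia gave 0.37 (SE 0.35, adjusted p = 0.728), in a comparison where 2.9% of genes and none of the 5 members were called by edgeR (1 with DESeq2, hif1al). The hif1an interactions, -0.70 for mild and 0.33 for severe hypoxia, had adjusted p-values of 0.802 and 0.865, and the severe one was 0.10 without NBH severe hypoxia replicate 5.

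Between the populations, hif1al in control livers was the 1 call over the 5 genes and 3 conditions. Under mild hypoxia 1.25% of genes and 0 members were called by edgeR, although hif1al and hif1an had unadjusted p-values of 0.00617 and 0.0431. Under severe hypoxia 7.32% of genes and 0 members were called, with hif1aa at an unadjusted p of 0.00791. In NBH relative to SC livers hif1an was at -0.07 in controls, -0.76 in mild hypoxia and 0.26 in severe hypoxia on the log2 scale, and epas1a at -0.24, -0.45 and -0.44. The epas1b values were 0.79 in controls, -0.49 in mild hypoxia and -0.10 in severe hypoxia. Without NBH severe hypoxia replicate 5 the severe values were 0.030 for hif1an and 0.14 for epas1b. These 3 genes were called by edgeR in no comparison of the populations.

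**Figure D3:**
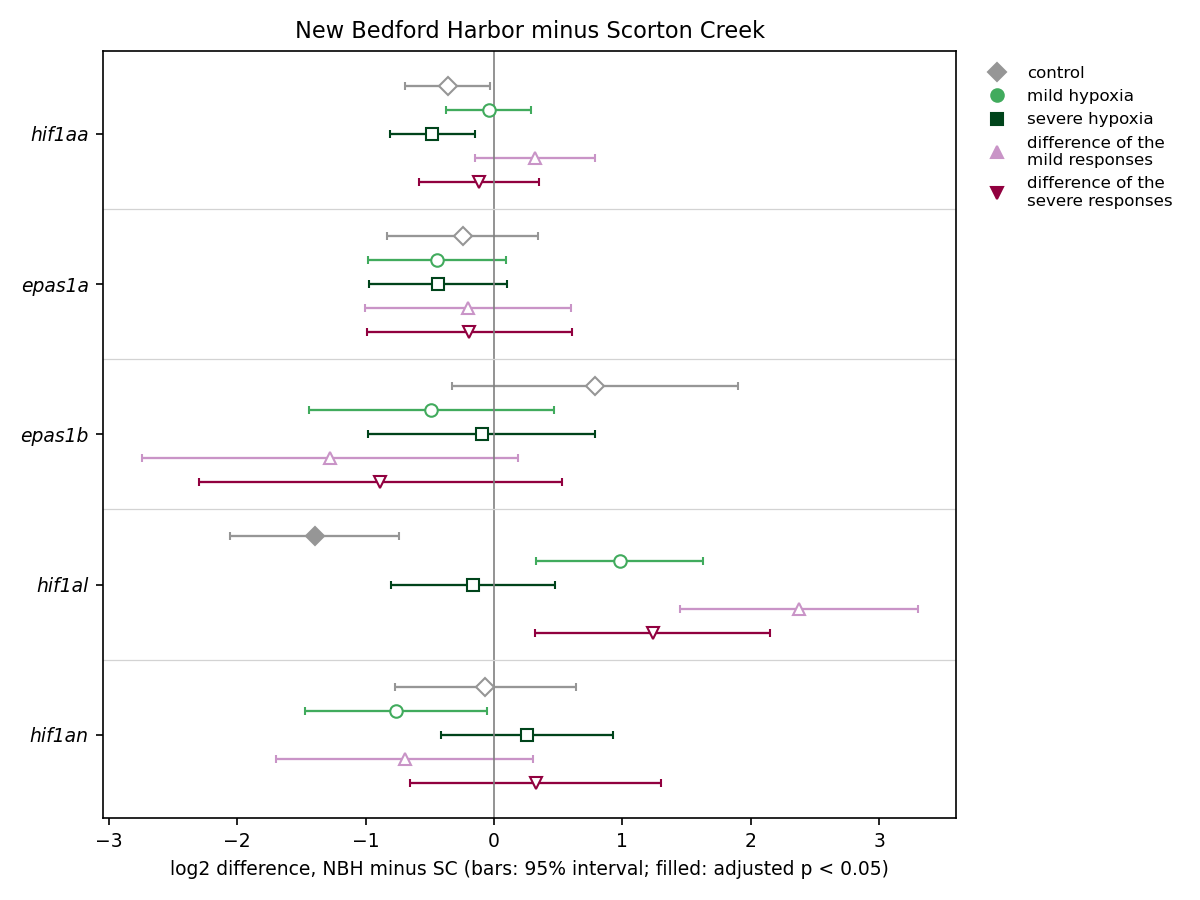
Log2 differences of NBH minus SC (x axis) for the 5 genes in control, mild and severe hypoxia livers, and the differences between the populations' mild and severe responses (triangles), with 95% intervals and filled symbols at an adjusted p under 0.05. The 1 filled point is hif1al in controls at -1.40, and the widest departure is the hif1al mild interaction at 2.38.

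Ordered by mean level, hif1al ran downward through SC severe hypoxia, NBH mild hypoxia, NBH severe hypoxia, SC control, SC mild hypoxia and NBH control. For hif1aa the order was SC control, SC severe hypoxia, SC mild hypoxia, NBH control, NBH mild hypoxia and NBH severe hypoxia, and for epas1a it was SC mild, SC severe, NBH mild, SC control, NBH severe and NBH control. For epas1b the order was SC severe, SC mild, NBH severe, NBH mild, NBH control and SC control, and for hif1an it was NBH severe, SC severe, SC control, SC mild, NBH control and NBH mild. In each gene every group overlapped its neighbor in that order. The pairwise Pearson correlations of log CPM of the 5 genes over the 30 libraries were weak, from -0.14 to 0.22. These libraries share groups and differ in depth. The low counts of epas1a and epas1b limit what such values can show about shared movement.

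The partners and regulators of the alpha proteins were followed in a list of 14 genes, of which 11 were in the count tables, all tested. Under severe hypoxia 5 of 11 rose and 0 fell in SC fish, beside 15.2% of all genes called higher and 28.7% called in either direction. The list's median log2 fold change was 0.10 against 0.01 over all genes. Those 5 were arnt, the common beta subunit (log2 fold change 1.18, edgeR adjusted p = 0.0221), the prolyl hydroxylases egln1a (1.35, adjusted p = 0.00132), egln2 (1.25, adjusted p = 0.0358) and egln3 (8.79, adjusted p = 1.28e-06), and the coactivator crebbpb (0.90, adjusted p = 0.0367). With library size as a covariate or with counts thinned to the smallest library 2 of the 5 stayed, egln1a and egln3.

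Of the same list 1 of 11 rose in NBH severe hypoxia, egln3, at a log2 fold change of 3.62 (SE 1.06, edgeR adjusted p = 0.0227). This share of 9.09% stood beside 7.45% of all genes called higher and 14% called in either direction. The list median was 0.37 against 0.04 over all genes. Without replicate 5, which held 1 count of arnt, 3 rose, namely arnt, egln1a and egln3, and 2439 of 13914 genes were called in all. The level of egln3 was 3.59 ± 3.42 CPM in NBH severe hypoxia livers and 198 ± 208 CPM in SC severe hypoxia livers, a log2 difference of -5.80 (SE 0.83, adjusted p = 0.000142), although its severe interaction of -5.17 had an adjusted p of 0.298. The SC severe hypoxia fish stood far apart, at 155, 300, 19.6, 9.22 and 504 CPM of egln3. The NBH ones stood at 1.04, 0.255, 2.91, 8.76 and 4.97 CPM, with replicate 2 within the NBH control range of 0.117 to 0.594 CPM. The second beta subunit, arnt2, was higher in NBH than in SC severe hypoxia livers, at 1.97 ± 0.813 CPM against 0.541 ± 0.252 CPM (log2 difference 1.87, SE 0.43, adjusted p = 0.00954).

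Under mild hypoxia, in NBH fish egln2 fell by 1.36 on the log2 scale (SE 0.46, edgeR adjusted p = 0.0354), and the other 10 were not called, beside 21% of all genes called. In SC fish 0 of 11 were called by edgeR, beside 13.6% of all genes, with a list median of 0.46 against 0.00 over all genes. The degradation factor vhl was called in no comparison, with group means between 2.82 and 3.92 CPM. Between control livers of the populations 0 of 11 were called by edgeR, beside 1.62% of all genes, and neither interaction called any of them.

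**Figure D4:**
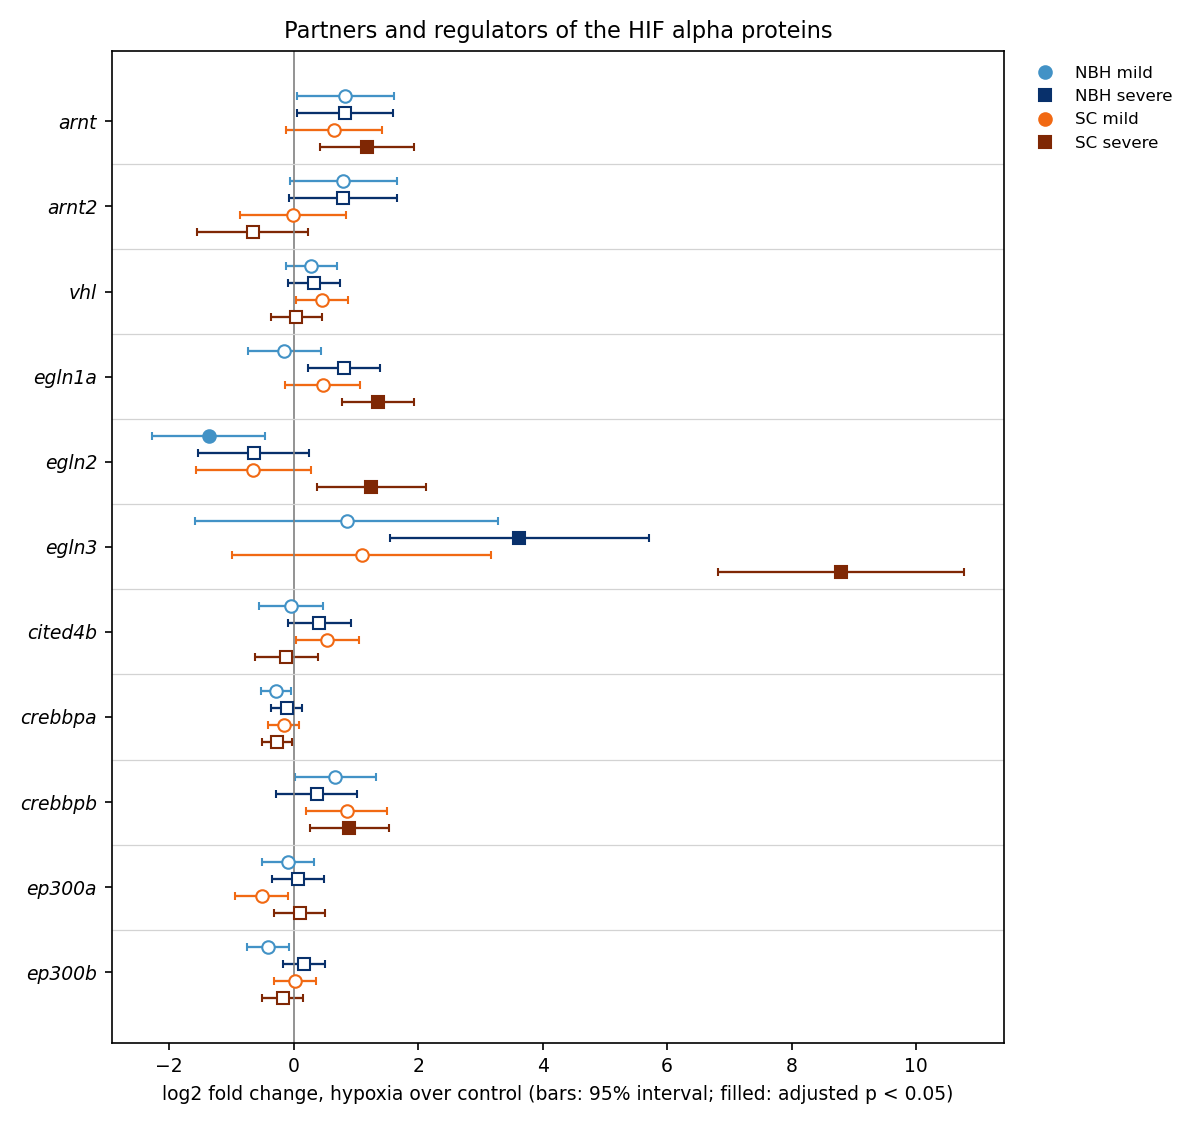
Log2 fold changes in hypoxia over control (x axis) for the 11 partner and regulator genes in the 4 within-population comparisons, with 95% intervals and filled symbols at an adjusted p under 0.05. The filled SC severe hypoxia points are arnt, egln1a, egln2, egln3 at 8.79 and crebbpb, and the filled NBH points are egln2 in mild hypoxia at -1.36 and egln3 in severe hypoxia at 3.62.

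Genes known as HIF targets in other vertebrates were followed in a list of 81 symbols, of which 51 were in the count tables and 41 were tested. Among SC fish under severe hypoxia 12 rose and 8 fell, so that 20 of 41 (48.8%) were called beside 28.7% of all genes, with a median log2 fold change of 0.26 against 0.01. In NBH severe hypoxia 7 rose and 2 fell (21.95%), beside 14% of all genes, with a median of 0.00 against 0.04. Under mild hypoxia 4 rose and 4 fell in NBH fish (19.5%, beside 21% of all genes) and 2 rose and 2 fell in SC fish (9.76%, beside 13.6%), shares below those of all genes.

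The 4 targets with the largest changes in SC severe hypoxia were egln3, which is also a partner, aldoab, epoa and bhlhe40. Erythropoietin, epoa, stood at 10.8 ± 10.1 CPM in SC severe hypoxia livers against 1.25 ± 0.855 CPM in SC control livers (log2 fold change 3.09). SC severe hypoxia replicates 3 and 4 stood at 1.70 and 2.14 CPM of epoa, within the SC control range of 0.290 to 2.41 CPM. The clock-linked repressor bhlhe40 stood at 41.8 ± 22.4 CPM against 5.62 ± 1.22 CPM (2.89), and in NBH severe hypoxia livers at 11.4 ± 6.59 CPM against 2.90 ± 0.983 CPM in NBH control livers. The glycolytic gene aldoab fell to 0.259 ± 0.166 CPM in SC severe hypoxia livers, against 2.48 ± 1.93 CPM in SC control livers. Its reads were few, at 2 to 10 counts per SC severe hypoxia library and 7 to 58 per SC control library. Of 8 listed symbols of the aryl hydrocarbon receptor pathway, which also uses ARNT, 1 was in the count tables (ahrr), and it was too low to be tested. Lists were matched by symbol alone, and of the 34089 genes counted, 17972 carry only a LOC name. A listed gene that was not found, in this or any other list, may therefore have been counted under such a name. The symbol cyp1a was not found, although the paper reports higher expression of this gene in NBH than in SC fish.

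Liver identity was clear from the hepatocyte markers in the count tables (10 of 23 listed), but the marker sums moved with hypoxia. The hepatocyte sum was 134896 to 166461 CPM in NBH mild, 119859 to 161540 CPM in NBH severe, 110448 to 131884 CPM in SC mild and 105546 to 120990 CPM in SC severe hypoxia livers, against 168443 to 192809 CPM in NBH and 145870 to 226815 CPM in SC control livers. It was thus lower in every hypoxia group without overlap, while apoa2 was called lower in all 4 comparisons and fga and fgg were called higher in NBH mild and SC severe hypoxia, fgg also in SC mild hypoxia. The sum is mostly apoa2, tfa and hpxa and is not a general fall. The median log2 fold changes of the 10 markers were 0.16, -0.12, -0.18 and -0.18 in the same order. Of the 10 markers 30%, 10%, 20% and 40% were called, beside 21%, 14%, 13.6% and 28.7% of all genes. The summed level of 12 stellate and fibroblast markers, none at 0 in all fish, was 37.9 to 64.9 CPM in NBH mild, 28.5 to 60.7 CPM in NBH severe, 29.3 to 57.1 CPM in SC mild and 24.7 to 41.1 CPM in SC severe hypoxia livers, against 118 to 186 CPM in NBH and 121 to 289 CPM in SC control livers. Of the 9 tested, 7, 5, 7 and 7 were called lower in that order, beside 10%, 6.51%, 6.36% and 13.5% of all genes. The marker acta2 went the other way in NBH mild hypoxia, where it was called higher.

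Leukocyte markers (8 of 13 listed) held 10.1 to 43.4 CPM in NBH mild, 15.6 to 32.2 CPM in NBH severe, 8.52 to 19.7 CPM in SC mild and 4.95 to 21.9 CPM in SC severe hypoxia livers, against 26.4 to 59.4 CPM in NBH and 23.5 to 33.5 CPM in SC control livers. In SC severe hypoxia 6 of the 7 tested were called lower, with a median log2 fold change of -1.62, as were both red blood cell markers in the tables, alas2 and slc4a1a, with a median of -1.95. Of all tested genes 13.5% were called lower in that comparison. In NBH severe hypoxia 1 leukocyte marker was called lower and no red blood cell marker was called, beside 6.51% of all genes called lower. In SC mild hypoxia coro1a and alas2 were called lower, beside 6.36% of all genes. The leukocyte medians were -0.81 in NBH mild, -0.71 in NBH severe and -0.91 in SC mild hypoxia. Those of the red blood cell markers were -0.31, 0.03 and -1.01. In control livers the red blood cell median was -1.63 in NBH relative to SC fish, with none called. Neither interaction called a marker of these lists, where 0% and 0.00735% of all genes were called. The bile duct sum (6 of 10 listed) was mostly krt18a.1, the 1 marker of that list called lower in each of the 4 comparisons, whereas anxa4 was called higher in NBH mild and SC severe hypoxia. In NBH mild, NBH severe, SC mild and SC severe hypoxia 40%, 20%, 20% and 40% of its 5 tested markers were called. Of all genes 21%, 14%, 13.6% and 28.7% were. Endothelial markers (12 of 13 listed), from cells that express epas1 genes strongly in mammals, held 53.5 to 77.6 CPM in NBH mild, 64.3 to 87.2 CPM in NBH severe, 48.1 to 76.2 CPM in SC mild and 41.1 to 60.5 CPM in SC severe hypoxia livers, against 64.9 to 93.4 CPM in NBH and 60.5 to 71.5 CPM in SC control livers. Single endothelial markers went both ways. The marker cdh5 was called lower in all 4 comparisons, while kdr was called higher in all but NBH severe hypoxia, where egfl7 was. In each of the 4, 20% of the 10 tested were called, beside 13.6% to 28.7% of all genes. Exocrine pancreas markers (6 of 17 listed) varied widely between fish. Their sum was 220 to 504 CPM in NBH mild, 106 to 801 CPM in NBH severe, 207 to 401 CPM in SC mild and 87.9 to 300 CPM in SC severe hypoxia livers. In control livers it was 118 to 585 CPM in NBH and 65.9 to 531 CPM in SC fish. All 6 were not called in these 4 comparisons. In such bulk samples fewer cells of a type and less RNA per cell cannot be told apart, and the part of cell makeup in the changes of the 5 genes was not tested.

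Among 3244 genes with a gene name and at least 10 CPM on average, those whose log CPM followed hif1al most closely over the 30 libraries were coq8b, a kinase-like gene of coenzyme Q synthesis (Pearson r = 0.925), the circadian repressor cry1b (r = 0.854) and the immunophilin fkbp5 (r = 0.853), given as a description since the libraries share groups. The level of coq8b was 3.47 ± 0.537 CPM in NBH control, 24.2 ± 19.5 CPM in NBH mild hypoxia and 20.1 ± 17.4 CPM in NBH severe hypoxia livers, and 14.4 ± 3.11 CPM in SC control, 10.7 ± 5.69 CPM in SC mild and 23.3 ± 2.92 CPM in SC severe hypoxia livers. Its correlation with hif1al within groups, after taking out the group means, was 0.832. The closest genes were less alike for the other members, with r = 0.700 for hif1aa and rnf19b, 0.718 for epas1a and arsh, 0.764 for epas1b and sf3b3 and 0.725 for hif1an and prox1a. The epas1b value rests on 0 to 24 counts per library, with 0 in NBH control replicate 2 and NBH severe hypoxia replicate 5. The weight of these libraries in that r was not tested.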

How the data were processed

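Liver RNA of 30 fish was sequenced by the authors as stranded single-end reads of 50 bp, whose adaptors were removed with Trimmomatic. STAR placed the reads on the genome, and HTSeq-count gave the number per annotated gene. The deposited values are raw counts, 1 table per fish, listing genes by symbol, of which 32227 of 34089 matched the RefSeq gene table. Depth ran from 4955114 to 23849931 counts, and the tested genes held 99.911% of them. The lowest counts limit epas1b most. Methylation libraries of the series were not analysed here.

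Groups came from the sample labels. Genes were kept by filterByExpr over the 6 groups, scaled by TMM and fitted with edgeR 4.0.16 (R 4.3.3, quasi-likelihood, 1 mean per group, all 30 fish), and 11 contrasts were tested, each with Benjamini-Hochberg adjustment over 13609 genes. SE is the log2 fold change divided by the root of the F statistic, and 95% intervals are normal ones. Log CPM for correlations used a prior count of 2. Intervals and floors of counts cover counting error only. The script was tested on simulated counts.

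The alternatives were no TMM factors, DESeq2 1.42.0, no filter, only the groups compared, the replicate number as a block, log2 total count as a covariate, counts thinned to the smallest library, and each fish left out. The members, the partner, target and marker lists and the tests were chosen with earlier results of these data known. All 5 members, all partners and the 4 targets with the largest change in SC severe hypoxia were named, and other genes by their correlation with a member. Replicates with the same number did not deviate together, so they were not treated as pairs. No 2 libraries of a group were alike within sampling noise.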

Additional observations from a re-analysis of the deposited data

Results flagged for a closer look

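Over the 5 genes and 6 groups, 30 sets of 5 fish were checked for a fish far from the rest by Dixon's criterion, which chance meets in about 1 of 20 sets, and 4 sets met it. For epas1a, SC mild hypoxia replicate 2 stood at 2.05 CPM, below the 4.22 to 4.87 CPM of the other 4 fish. SC severe hypoxia replicate 2 stood at 5.80 CPM of epas1a, above the 1.90 to 2.49 CPM of the other 4. For epas1b, NBH control replicate 2 had 0 counts, or 0 CPM, where the other 4 fish stood between 0.469 and 0.642 CPM, and 3 counts at its depth are worth 0.544 CPM. SC severe hypoxia replicate 5 stood at 0.585 CPM of epas1b (12 counts), below the 0.829 to 0.887 CPM of the other 4. No fish of hif1aa, hif1al or hif1an met the criterion, and neither interaction was called for any of the 5 genes by edgeR.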

How the results depend on the processing

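The 2 calls of hif1al in NBH hypoxia over control and its sign were kept under all 7 alternatives and all 30 fits without 1 fish. Counts of members called changed as follows. Without TMM factors 2 members instead of 1 were called in NBH mild, NBH severe, SC mild and SC severe hypoxia over control, an alternative that moved the median of all genes by 0.32, 0.43, 0.27 and 0.37 on the log2 scale. With DESeq2, 1 member instead of 0 was called in SC severe over mild hypoxia and in the mild interaction, and with only the groups compared 1 in SC severe over mild hypoxia. In NBH severe over mild hypoxia 0 instead of 1 were called with no filter, with only the groups compared, with the replicate block, with the total count as a covariate and after thinning. In SC mild hypoxia over control 0 instead of 1 were called with no filter and after thinning, and 2 with the covariate. In SC severe hypoxia over control 0 instead of 1 were called with only the groups compared, with the covariate and after thinning, where epas1b did not pass the filter in the first and the last.

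With 1 fish left out, 1 to 2 members were called in NBH mild hypoxia over control, 0 to 1 in NBH severe over mild, 0 to 2 in SC mild hypoxia over control, 0 to 1 in SC severe hypoxia over control, in SC severe over mild, in NBH minus SC at each of the 3 conditions and in the mild interaction, and 1 and 0 throughout in NBH severe hypoxia over control and the severe interaction.

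Signs changed for uncalled values. Without TMM factors hif1aa came to 0.31 in NBH mild, 0.22 in NBH severe and 0.29 in SC severe hypoxia over control, hif1al to 0.020 in NBH severe over mild and hif1an to 0.19 in SC mild hypoxia. With no filter hif1aa in NBH mild hypoxia came to 0.055. After thinning epas1a in NBH severe hypoxia came to -0.19. With the covariate epas1b came to -0.36 in NBH mild hypoxia, -0.61 in SC severe over mild and 0.055 in NBH minus SC under severe hypoxia. Leaving out 1 fish turned the sign 25 times, only in values of 0.19 or less in size: the ranges were -0.084 to 0.11 for hif1aa in NBH mild, -0.23 to 0.019 in SC severe hypoxia, -0.11 to 0.0060 in NBH minus SC under mild hypoxia and -0.22 to 0.027 in the severe interaction, -0.34 to 0.21 for epas1a in the severe interaction, -0.13 to 0.26 for epas1b in NBH mild hypoxia, -0.015 to 0.26 in SC severe over mild and -0.26 to 0.14 in NBH minus SC under severe hypoxia, -0.31 to 0.25 for hif1al in NBH severe over mild, and -0.27 to 0.11 for hif1an in SC mild hypoxia and -0.36 to 0.13 in NBH minus SC controls.

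Of 75 same-numbered pairs of fish 4 correlated above 0.1 in their deviations (median -0.01), and 6 fish correlated best with their own number, so the numbers do not pair the samples. The replicate block gave an adjusted p of 0.0605 for hif1an in NBH severe over mild hypoxia and changed no other call of the 5 genes. Apart from the values named, no cause of these changes was tested. Depth limits epas1b, whose library counts were 24 or fewer.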
